A study of Mus musculus with 4 samples.

Results

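The miR-200 family comprises 5 mature mouse miRNAs, mmu-miR-200a, mmu-miR-200b, mmu-miR-429, mmu-miR-200c and mmu-miR-141 (written below without the species prefix), processed from 2 genomic clusters. Members were taken by probe name, with any probe for the opposite (asterisk) arm of the same precursors. This gave 9 of the 696 mouse miRNA probes: the 5 mature miRNAs and the 4 asterisk arms miR-200a*, miR-200b*, miR-200c* and miR-141*. They were measured in total RNA of untreated mandibular molar tooth germs from embryos of ICR mice, an outbred laboratory strain, on embryonic day 11 (E11), 12 (E12), 14 (E14) or 16 (E16). Each stage has 1 Agilent single-colour miRNA array, and how many animals stand behind an array is not stated in the labels. The tooth germ was sampled whole, and no sorting of its epithelium from its mesenchyme is described. With 1 array per stage there is no spread between animals and no p-value. Errors written with ± are the measurement errors stated for each signal, combined where 2 or more signals enter a difference.

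The miR-200 family is best known as a marker and a stabiliser of the epithelial state. Its members repress Zeb1 and Zeb2, transcription factors that silence E-cadherin and other epithelial genes and that in turn repress the miR-200 loci, so that the pair forms a double-negative loop at the border between epithelial and mesenchymal states. In the molar, the dental epithelium thickens, buds into the underlying neural-crest mesenchyme and folds through cap to bell stage over the days sampled. A miRNA recognises its targets mainly through its seed, bases 2 to 8, and the family holds 2 seeds that differ at 1 base.

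The mature sequences are shown because the changes described below are compared between members with the same seed and between members of the same cluster. Capitals mark the seed, each line runs 5′ to 3′, and the sequences are those of RefSeq for assembly GRCm38.p6. Probe names without an arm were matched to the RefSeq 3p entries and asterisk names to the 5p entries, and all 9 matched. The first 3 lines hold the seed AAUACUG and the last 2 the seed AACACUG; no other mature mouse miRNA of that table has either seed.
miR-200b: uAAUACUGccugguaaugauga
miR-429: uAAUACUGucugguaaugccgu
miR-200c: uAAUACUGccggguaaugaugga
miR-200a: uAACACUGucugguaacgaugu
miR-141: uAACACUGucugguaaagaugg

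The seed grouping cuts across the genomic one. On the minus strand of chromosome 4 lie the hairpins of miR-200b (chr4:156055681-156055750), miR-200a (chr4:156054896-156054985) and miR-429 (chr4:156053905-156053987), 3 precursors within 1846 bases. On the minus strand of chromosome 6 lie miR-200c (chr6:124718322-124718390) and miR-141 (chr6:124717914-124717985), within 477 bases. Each cluster thus carries both seeds. Counting from the 5′ end, miR-141 differs from miR-200a by C17A and U22G alone, identical at 20 of 22 positions. miR-200c differs from miR-200b over the same 22 positions by U11G and A22G. The remaining pairs differ at 4 or 5 positions. Sequences this close may be captured by one another's probes, and how far they were on these arrays was not tested. At E11 the miR-200a probe gave a signal of 43.3 while the miR-141 probe was not detected. The lowest detected signal of that array was 5.48, so weaker capture would not be seen. This reads only capture of miR-200a by the miR-141 probe, not the reverse.

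All 5 mature miRNAs were detected in the tooth germ by E12, and 4 of the 5 already at E11. Of all 696 probes, 30.0% were detected at E11 and 31.8% at E12. In the deposited signals, which are intensities not scaled between arrays, every member was higher at each later stage than at the one before. So were 59 (29.9%) of the 197 miRNAs detected on all 4 arrays. In stage order from E11 to E16, miR-200b had signals of 250.0 ± 19.4, 465 ± 35.5, 684 ± 50.7 and 1023 ± 76.4. Those of miR-429 were 95.1 ± 8.3, 239 ± 18.1, 326 ± 23.7 and 612 ± 43.9. Signals of miR-200c were 92.2 ± 8.2, 220 ± 17.2, 433 ± 31.8 and 676 ± 49.2 over the same stages. Within each of these 3 AAUACUG miRNAs, no stage's interval of signal ± error overlapped the next.

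The 2 AACACUG miRNAs began dimmer. In the same order miR-200a had signals of 43.3 ± 5.9, 117 ± 11.2, 219 ± 18.1 and 570.4 ± 45.3, again without overlap between neighbouring stages. miR-141 was not detected at E11 and had 31.0 ± 5.5, 77.9 ± 7.8 and 441 ± 34.6 at E12, E14 and E16. Its lowest detected signal was 5.65 times its stated error, and over all detected signals of the family the error was 7.16% to 17.7% of the signal. None of the 4 asterisk arms was detected at any stage, on arrays that detected from 30.0% (E11) to 35.9% (E16) of all 696 probes. An undetected probe is written as 0.1, which is a placeholder and not a level.

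**Figure D1:**
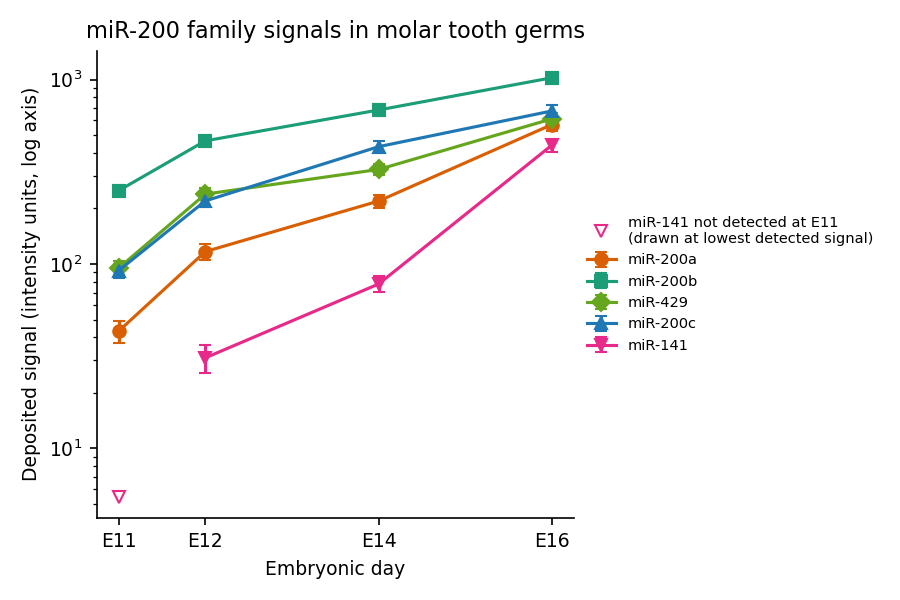
Deposited signal (intensity, log axis) of the 5 mature miRNAs against embryonic day, with 1 array per stage and bars for the stated measurement error of each signal. Every member climbs at each stage, and miR-141, undetected at E11 (open symbol at the lowest detected signal of that array, 5.48), stands at 441 at E16.

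Signals of many miRNAs were higher on the later arrays. The 75th percentile over the 197 miRNAs detected on all 4 arrays was 250.0 at E11, 398 at E12, 528 at E14 and 676 at E16. Differences below are therefore taken on the log2 scale after subtracting that percentile from each array, later minus earlier, unless the deposited signal is named. A member counted as higher where it differed by at least 2-fold (1 on the log2 scale), or where it was detected at the later stage alone and exceeded the lowest detected signal of the earlier array by at least 2-fold. For a miRNA undetected at the earlier stage, its fold over that lowest signal is called its lower bound. A probe's own limit of detection is not stated and may lie above that signal, so the real fold may be smaller. The rule is one of size and carries no test. Other scalings were run beside it, and all 18 differences of single members between stages at which they were detected stayed above 0 under each of the 6 scalings.

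Between E16 and E11, which spans the first epithelial thickening and the bell stage, 4 of the 5 mature miRNAs were at least 2-fold higher, against 20.1% of the 254 miRNAs detected at either stage. On the deposited signals it was 5 of 5, against 52.4%. miR-141 led, with a lower bound of 29.8-fold against the lowest detected E11 signal (19.0-fold to 80.5-fold over the 6 scalings). miR-200a was 4.87-fold higher (2.28 ± 0.23 on the log2 scale), placed 7th of the 205 miRNAs detected at both stages. miR-200c was 2.71-fold higher (1.44 ± 0.17) and miR-429 was 2.38-fold higher (1.25 ± 0.16). miR-200b, the exception, was 1.51-fold higher (0.60 ± 0.16), and passed 2-fold only with median scaling or without scaling, where its difference was 2.03. The median over the 4 members detected at both stages was 1.35, beside -0.74 over all 205 miRNAs. On the deposited signals these medians were 2.78 and 0.69. In RNA of whole tooth germs, more epithelial cells and more of a miRNA per epithelial cell cannot be told apart.

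**Figure D2:**
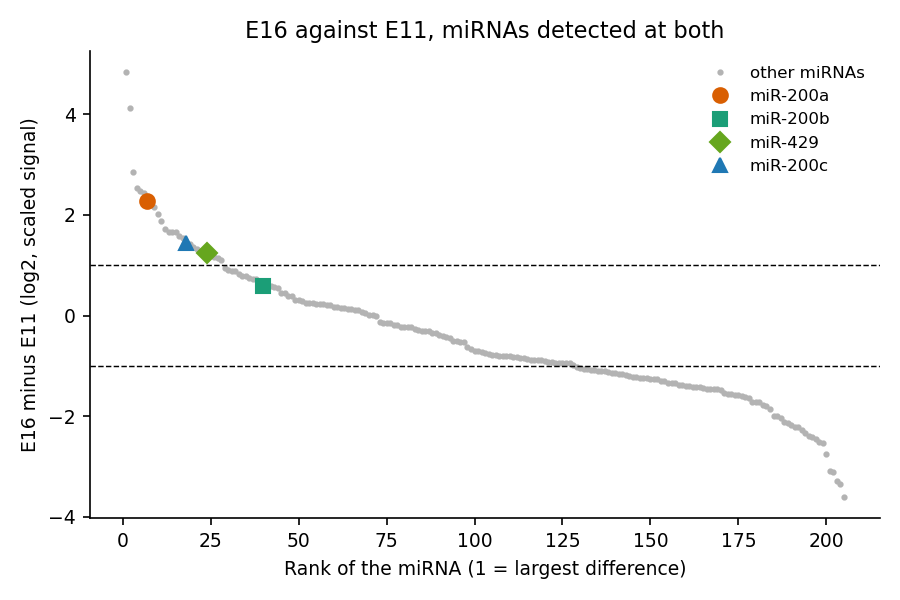
Log2 difference of scaled signal, E16 minus E11, for the 205 miRNAs detected at both stages, ordered by rank; grey points are other miRNAs and dashed lines mark 2-fold. miR-200a, miR-200c and miR-429 lie above the upper line at 2.28, 1.44 and 1.25, miR-200b below it at 0.60, and miR-141, undetected at E11, is not drawn.

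**Figure D3:**
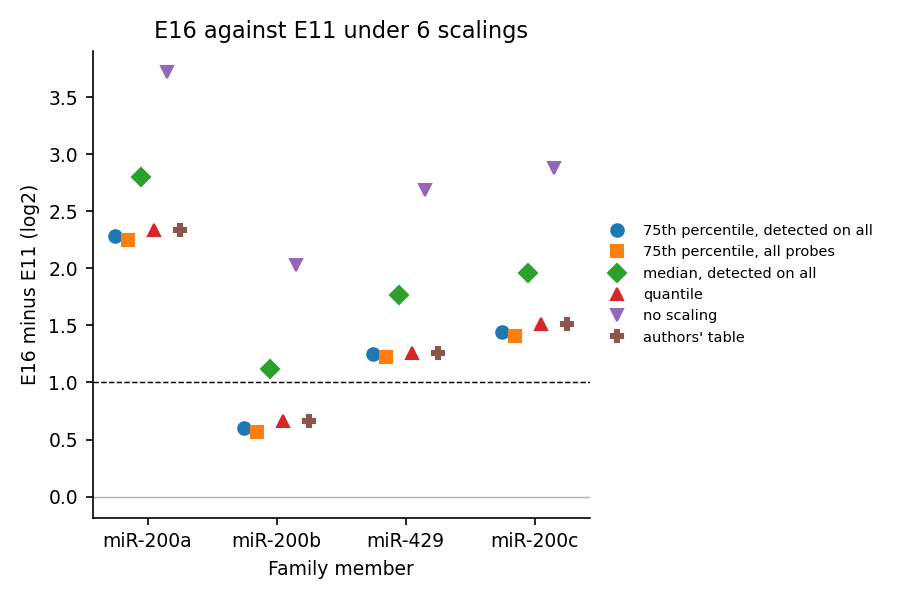
E16 minus E11 on the log2 scale for the 4 members detected at both stages, with 1 symbol for each of the 6 scalings between arrays and a dashed line at 2-fold. All 24 values are above 0, miR-200a ranges from 2.25 to 3.72 and miR-200b from 0.57 to 2.03. The order of the members, which a constant scaling cannot change, is also the same with quantile normalization and the authors' table.

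From E11 to E12, when the placode starts to bud, the gains were moderate. Only miR-141 counted as higher, by its lower bound of 3.56-fold, which is 1 of 5 members against 14.8% of 229 miRNAs detected at either stage. It was also the family's only member to appear on the E12 array without having been detected at E11. miR-200a was at 0.76 ± 0.24, miR-429 at 0.66 ± 0.17 and miR-200c at 0.59 ± 0.17. miR-200b was at 0.23 ± 0.16. The members' median of 0.62 stands beside -0.20 over the 201 miRNAs detected at both stages. On the deposited signals 4 of 5 members counted as higher, against 28.4% of those 229, with miR-200b the exception at 0.90.

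From E12 to E14, bud to cap, 0 of 5 members passed 2-fold, against 16.7% of 258 miRNAs. miR-141 came nearest at 0.92 ± 0.29, and it did pass with median scaling, quantile normalization, the authors' table and the deposited signals (1.33). miR-200c was at 0.57 ± 0.15 and miR-200a at 0.50 ± 0.18. miR-200b (0.15 ± 0.15) and miR-429 (0.03 ± 0.15) were within their measurement error of 0 with this scaling. That depends on the scaling: both exceeded it with median scaling (0.38 and 0.27), with quantile normalization and the authors' table (0.18 and 0.42) and on the deposited signals (0.56 and 0.44). With the percentile over all probes, the gain of miR-200b from E11 to E12 was also within its error, at 0.05. The family's median was 0.50 and that of all 212 miRNAs detected at both stages was -0.40.

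From E14 to E16, cap to bell, the 2 AACACUG miRNAs were the members past 2-fold: 2 of 5, against 11.2% of 268 miRNAs. miR-141 was 4.42-fold higher at E16 than at E14 (2.15 ± 0.18), ranking 2 of the 231 miRNAs detected at both stages. miR-200a was 2.03-fold higher (1.02 ± 0.17), just past the threshold, and fell short of it at 0.72 with quantile normalization or the authors' table. The AAUACUG miRNAs differed less, with miR-429 at 0.55 ± 0.15, miR-200c at 0.29 ± 0.15 and miR-200b at 0.22 ± 0.15. The members' median was 0.55, beside -0.06 over all 231.

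**Figure D4:**
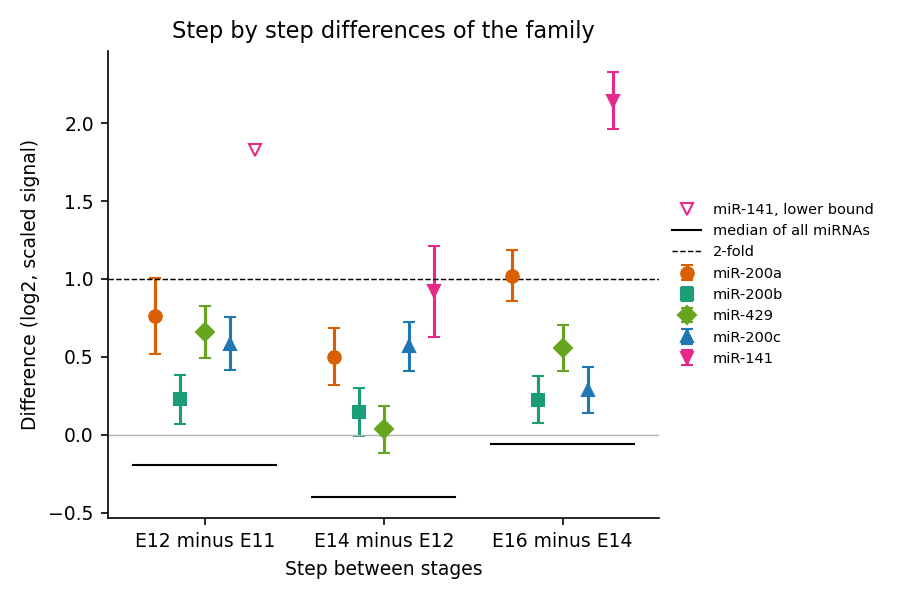
Log2 difference of scaled signal for each of the 3 steps between stages, later minus earlier, with bars for the combined measurement error, a black line at the median over all miRNAs measured on both arrays and a dashed line at 2-fold. All family members lie above the black line in each step; miR-141 stands at 2.15 between E14 and E16, and its open symbol for E12 minus E11 is a lower bound.

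The 4 members detected on every array were higher at each of the 3 steps under all 6 scalings. Among the 197 miRNAs detected on all arrays, 19 (9.64%) were higher at each step with the scaling used here, and 59 (29.9%) on the deposited signals. Under all 6 scalings 15 (7.61%) were so. The 4 members are among those 15.

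Members did not change in step, and this can be read without any choice of a constant scaling, since an array's factor drops out when the change of one miRNA is subtracted from that of another. Over E16 versus E11 the change of miR-200a exceeded that of its cluster neighbour miR-200b by 1.69 ± 0.28 on the log2 scale, or 3.22-fold. It exceeded that of miR-429, in the same cluster, by 1.03 ± 0.28, and that of miR-200c, in the other cluster, by 0.84 ± 0.28. Among the AAUACUG miRNAs, miR-200c exceeded miR-200b by 0.84 ± 0.23, and miR-429 exceeded miR-200b by 0.65 ± 0.23. miR-200c and miR-429, from different clusters, differed by 0.19 ± 0.23, within the error. Of the 6 pairs, 5 differed by more than 2 combined errors. The order miR-200a, miR-200c, miR-429, miR-200b cannot change under a constant scaling, and it was the same with quantile normalization and the authors' table.

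The same subtraction was made for each step. Between E12 and E11 it leaves out miR-141, whose lower bound already lay 1.60 above miR-200b. Among the other 4 members 0 of 6 pairs differed by more than 2 combined errors in that step, and the widest gap was 0.54 ± 0.29, between miR-200a and miR-200b (0.61, past 2 errors, with quantile normalization and the authors' table). Between E14 and E12 it was 3 of 10 pairs. miR-141 exceeded miR-429 by 0.89 ± 0.33 and miR-200b by 0.77 ± 0.33, and miR-200c exceeded miR-429 by 0.53 ± 0.22. With quantile normalization and the authors' table it was again 3 pairs, but both gaps to miR-429 fell within 2 errors (0.62 and 0.33), while the same-cluster gap of miR-200a over miR-200b (0.64) and that of miR-200c over miR-200b (0.57) passed. Between E16 and E14 it was 7 of 10, or 6 with those 2 scalings. In that step miR-141 exceeded miR-200c, its partner in the cluster of 477 bases, by 1.86 ± 0.24, or 3.63-fold. miR-200a exceeded miR-200b by 0.80 ± 0.22 and miR-429 by 0.47 ± 0.22. Its gap over miR-200b fell to 0.42, within 2 errors, with quantile normalization and the authors' table, and is the pair lost there. Both AACACUG miRNAs therefore changed more than each AAUACUG miRNA in the last step, whichever cluster they came from. They also differed from each other, with miR-141 exceeding miR-200a by 1.12 ± 0.25. Their sequences match at 20 of 22 positions, and how far the miR-200a probe captured miR-141 in this step was not tested. The 3 AAUACUG miRNAs differed among themselves by 0.06 to 0.33, each pair within 2 combined errors, and with quantile normalization the signs of these small gaps turned.

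Signal level moved with these differences. The 4 members detected at E11 had deposited signals of 43.3, 92.2, 95.1 and 250.0, and in that order their changes to E16 were 2.28, 1.44, 1.25 and 0.60, while miR-141, undetected at E11, had the largest bound. Probes differ in affinity, so these signals give no order of abundance between miRNAs. Over all 205 miRNAs the Spearman correlation of the E11 signal with the change from E11 to E16 was -0.16, a description across miRNAs in which both measures share the E11 array. Over 210 miRNAs, the correlation of the E12 signal with the change from E14 to E16, which share no array, was 0.02. E12 signals of the members were 31.0 (miR-141), 117 (miR-200a), 220 (miR-200c), 239 (miR-429) and 465 (miR-200b). In that order their changes from E14 to E16 were 2.15, 1.02, 0.29, 0.55 and 0.22. The AACACUG miRNAs thus had both the lowest E12 signals of the family and the largest changes in the last step. The part of signal level in the members' unequal changes was not tested.

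Other epithelium-enriched miRNAs of the same arrays were read beside the family. miR-205, abundant in stratified epithelia and also a repressor of Zeb1 and Zeb2, had deposited signals, in stage order, of 1241, 2190, 3517 and 5317. miR-203, which promotes differentiation in skin, had 73.0, 120, 106 and 725, with its largest gain between E14 and E16. miR-31 had 16.2, 130, 525 and 1257. After scaling, the 3 were at 0.66 ± 0.15, 1.88 ± 0.18 and 4.84 ± 0.35 for E16 versus E11, all positive like the family. So were 71 of the 205 miRNAs detected at both stages. This list and the mesenchymal list below were chosen with earlier results of these data known, so the values are a description only. The mean change of the 4 family members was 1.39 and that of the 3 epithelial miRNAs 2.46, a difference of -1.07 ± 0.17. That difference rests on miR-31: without it the family exceeded the other 2 by 0.12, less than the error. All 3 probes of this list were detected at every stage.

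Mesenchyme-enriched miRNAs had a lower mean change than the family and were mixed in direction. Of 8 probes on that list 7 were detected on all arrays, and miR-145 on none. For E16 versus E11, the median of these 7 was -0.40, with 1 past 2-fold upward and 2 downward. On the deposited signals the median was 1.03, with 4 past 2-fold upward and 1 downward. The mean change from E11 to E16 was 1.39 for the family and -0.38 for these 7, so the family exceeded them by 1.78 ± 0.13, or 3.42-fold. The gap was 1.33 with quantile normalization or the authors' table, and 1.42 when miR-214, which had the lowest value of the list, was left out. Over all 197 miRNAs detected on all arrays the family's gap was 1.82 ± 0.09, so a gap of this size was not particular to the mesenchymal list. miR-199a-3p had deposited signals, in stage order, of 5055, 9031, 4824 and 5760. miR-214, from the Dnm3os transcript of mesenchymal cells, had 2787, 2460, 1636 and 1320. It was lower at each stage than at the one before, opposite to every member of the family. It was the 1 member of the list lower at E16 than at E11 in the deposited signals. miR-143, a smooth muscle and mesenchymal miRNA, was at 1.67 ± 0.39 for E16 versus E11, beside 1.44 ± 0.17 for miR-200c. By step and on the log2 scale, the family exceeded the mesenchymal mean by 0.41 ± 0.13 between E12 and E11, by 1.001 ± 0.11 between E14 and E12, and by 0.36 ± 0.10 between E16 and E14. The last of these turned to -0.12 with quantile normalization and the authors' table. Over all 197 miRNAs the family's gap in the same order of steps was 0.62 ± 0.10, 0.47 ± 0.08 and 0.72 ± 0.08.

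**Figure D5:**
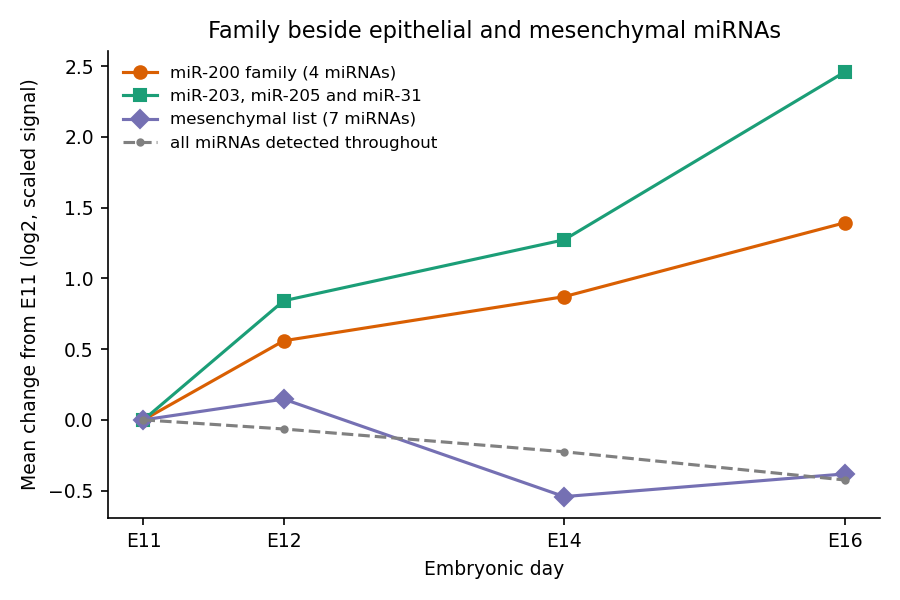
Mean change from E11 of log2 scaled signal over the 4 family members detected on all arrays, over miR-203, miR-205 and miR-31, over the 7 detected mesenchymal miRNAs and over all 197 miRNAs detected throughout (dashed). The family mean reaches 1.39 at E16 and the other epithelial mean 2.46, while the mesenchymal mean ends at -0.38 and that of all 197 at -0.42.

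Deposited signals of several markers of further cell types also changed over these stages, and their part in the family's values was not tested. Summed deposited signals of 2 erythroid probes were, from E11 to E16, 404, 422, 665 and 1230. Of these, miR-144 was detected at E16 alone, at 15.3, and the rest is miR-451. The sums of 2 endothelial probes, miR-126-3p and miR-126-5p, were 240, 446, 427 and 791. Of 5 leukocyte probes, miR-223 appeared at E12 and miR-142-3p at E16, with summed signals of 0, 17.6, 32.6 and 147, and miR-142-5p, miR-150 and miR-155 were at no stage detected. Of 5 neural probes, miR-128 was detected throughout and miR-137 at E12 and E16 (sums of 14.6, 98.8, 35.6 and 87.7), and miR-124, miR-9 and miR-9* never. None of 4 muscle probes was detected. After scaling, E16 versus E11 was 0.15 ± 0.15 for miR-451, 0.31 ± 0.15 for miR-126-3p, -0.12 ± 0.45 for miR-126-5p and 0.02 ± 0.44 for miR-128. The markers undetected at E11 had lower bounds of 5.56-fold (miR-223), 4.34-fold (miR-142-3p), 3.21-fold (miR-137) and 1.03-fold (miR-144).

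The miRNAs with a course most like the family's were found by the root mean square distance between log2 profiles over the 4 stages, each centred on its own mean. Among 193 miRNAs that are not members and were detected on all arrays, the 5 nearest to the mean of the 4 members were miR-30a (distance 0.09), miR-27b (0.09), miR-23a (0.17), miR-98 (0.20) and miR-30e (0.20). miR-30a had deposited signals of 64.6, 161, 247 and 413 in stage order, and miR-27b 136, 345, 509 and 881. Their differences for E16 versus E11 were 1.24 ± 0.16 and 1.26 ± 0.17, next to 1.25 ± 0.16 for miR-429. Distances of this size are at or near the measurement error of a single difference, so the order among the nearest is not resolved. A constant scaling of an array leaves these distances unchanged. With quantile normalization and the authors' table miR-30a ranked no lower than 2 and miR-30e no lower than 10.

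The single nearest miRNA differed between members, while miR-27b and miR-30a were among the 3 nearest of both miR-429 and miR-200c. With the scaling used here, no member had another member among its 3 nearest of 196. The margin was small for miR-200a, where miR-200c ranked 4 at 0.33. miR-22 was nearest to miR-200a at a distance of 0.15, with deposited signals of 17.6, 63.0, 110 and 275. It stayed nearest with quantile normalization and the authors' table. It was followed by miR-27a (0.29) and let-7c (0.29). miR-205 was nearest to miR-200b at 0.06, then miR-24 and miR-30d (both 0.12); with quantile normalization or the authors' table miR-205 ranked as low as 16 and miR-24 as low as 22. miR-27b (0.05), miR-30a (0.07) and miR-98 (0.13) were nearest to miR-429. For miR-200c they were miR-23a (0.13), miR-30a (0.15) and miR-27b (0.16). Between members the smallest distance was 0.21, between miR-200c and miR-429, which lie on different chromosomes and share a seed, and the largest was 0.61, between miR-200a and miR-200b, which lie in the same cluster. Seen from miR-200b, miR-200a ranked 97 of 196 by distance.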

How the data were processed

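Total RNA (100 ng per array) was end-labelled with Cy3 after dephosphorylation and hybridised to Agilent miRNA arrays of 1 colour, per the labels' protocols. The deposited intensity of each probe is the total gene signal, with its error and a detection flag, per the file headers; no source used here names the extraction software, the array design or the background correction. Undetected probes are written as 0.1 with an error of 1. The authors' value table holds intensity normalized between arrays and served as an alternative.

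The 22 control features were left out, except from quantile normalization. Log2 signals were taken relative to each array's 75th percentile over the 197 miRNAs detected on all 4 arrays. The 6 scalings were this one, the same percentile over all probes, the median, quantile normalization, the authors' table, and the deposited signals without scaling. Quantile normalization and the authors' table gave the same differences for the members, so they are not separate checks. Errors were propagated from the stated signal errors, which are technical. The size rule was 2-fold. Python 3.11.15, numpy 2.4.6, pandas 2.3.3 and scipy 1.17.1 were used, and the calculation was tested on simulated data. The names given beyond the family are the list members (at most 4 of the mesenchymal list), the cell type markers, the 5 miRNAs nearest to the family mean and the 3 nearest to each member. The members and lists were chosen with earlier results of these data known. Samples were grouped by the labelled age.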

Additional observations from a re-analysis of the deposited data

How the results depend on the processing

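All 18 differences of single members kept their direction under the 6 scalings. The count for E16 versus E11 was 4 or 5 of 5 under them (20.1% over all miRNAs, 52.4% without scaling). It was 3 of the 4 members detected at both stages, against 28 of 205 miRNAs. The count for E12 versus E11 was 1 (14.8% over all miRNAs), against 4 without scaling (28.4%) and 0 with only members detected at both stages. For E14 versus E12 it was 0 (16.7% over all miRNAs), against 1 with median scaling, quantile normalization, the authors' table and no scaling. Without scaling, 57 of 258 miRNAs counted as higher in that step. For E16 versus E14 it was 2 (11.2% over all miRNAs), against 1 with quantile normalization and the authors' table. Shares over all miRNAs were computed only for the scaling used here and without scaling. The median for E16 versus E11 (1.35) became 1.86 with median scaling and 2.78 without scaling. The family's gap over mesenchymal miRNAs (1.78) became 1.33 with quantile normalization and the authors' table, and 1.42 without miR-214. Its gap to the other epithelial miRNAs (-1.07) became -1.35 with the first 2 of these, and turned to 0.12 without miR-31, where the list holds 2 miRNAs. The cause of the other shifts was not tested. Leaving out miR-214, leaving out miR-31, and a percentile without the family were chosen after seeing the data. The last was added because miR-200b at E11 and miR-200c at E16 lie exactly at the 75th percentile; it left the 4 counts as they were and gave a median of 1.37. A floor of 3 times a probe's own error was not run, since every undetected probe carries the same error of 1. Signal over background limits miR-141 at E11, where it gives only a bound, and the asterisk arms. No paired analysis was possible because each stage has 1 array.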
